A study of Mus musculus with 12 samples.

Results

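Complement components and regulators were followed in primary mouse oligodendrocyte precursor cells (OPCs), the cells that give rise to the myelin-forming oligodendrocytes. The set was 9 genes of 45563 symbols measured, chosen by symbol and role: *C3*, the classical pathway genes *C1ra*, *C1s1*, *C4b* and *C2*, the alternative pathway gene *Cfb*, and the inhibitors *Serping1*, *Cd55* and *Cd59a*. Earlier results of these data were known when the genes were chosen. RNA was sequenced in 12 libraries of 4 groups, with 3 libraries per group. OPCs came from cortices of C57BL/6 pups (C57BL/6J in the study's methods), aged 2 to 5 postnatal days by the labels and 3 to 5 by the methods, and were selected with beads against PDGFRα. WT NS and TNFR2-/- NS cells were non-stimulated and received PBS vehicle. WT St and TNFR2-/- St cells were stimulated for 3 h with TNF, IFNγ and IL1β at 25 ng/mL each, after 3 days in vitro in every group. TNFR2-/- mice lack the receptor in all of their cells, not in OPCs alone, so the genotype also covers the tissue from which the OPCs were taken. How many pups went into a culture is not given in the sources used here, so p-values measure the spread between these cultures.

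Complement is a cascade of proteins that marks targets for removal. In the classical pathway C1q binds a target and activates the proteases C1r and C1s. Of these, C1s cleaves C4 and C2 to form an enzyme that cleaves C3. In the alternative pathway factor B takes the place of C2 in that enzyme. Host cells are protected by the serum inhibitor C1-INH, which blocks C1r and C1s, and by the membrane proteins CD55 and CD59, which block the C3-cleaving enzyme and the final pore. Most circulating complement is made by the liver, but glial cells also transcribe several of these genes, and complement tags synapses and debris for microglia in the brain.

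Depth ranged from 26870452 to 30316731 read pairs recovered on genes, with the fewest in WT NS 3 and the most in TNFR2-/- NS 5. Libraries are named by the number in their labels, and values below run in the order 2, 3, 4 for WT and 2, 4, 5 for TNFR2-/-. The labels do not say what the number stands for. It was read here as that of a culture, because NS and St libraries of 1 number deviated together within a genotype. The targeted gene *Tnfrsf1b*, which encodes TNFR2, had 15, 12 and 24 read pairs in WT NS, 145, 61 and 105 in WT St, 322, 346 and 213 in TNFR2-/- NS, and 282, 356 and 290 in TNFR2-/- St libraries. It was therefore higher in every library labelled TNFR2-/- than in any labelled WT. With stimulation its mean rose 5.92-fold in WT, without overlap, and was 1.07-fold in TNFR2-/- cells, with overlap. Counts per gene do not show which exons were read, so this value does not check the labels, and every direction between genotypes below rests on the labels alone. All 8 OPC markers were present in each group, with summed levels of 8580 to 9960 CPM (read pairs of a gene for each 1000000 recovered in its library) in WT NS, 7121 to 8201 in WT St, 8596 to 9350 in TNFR2-/- NS and 7491 to 8184 in TNFR2-/- St libraries. Microglial markers summed to 9.81 to 13.1 CPM, and *Cx3cr1*, *Aif1*, *Fcrls*, *Tyrobp*, *Ctss* and *Siglech* had at most 3 read pairs in each library.

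Of the 9 genes, 4 lie on chromosome 17 and 2 form a close pair on chromosome 6 (GRCm38, GENCODE M21). *C4b* (ENSMUSG00000073418, chr17:34728380-34743882, minus strand), *Cfb* (ENSMUSG00000090231, chr17:34856374-34862518, minus strand) and *C2* (ENSMUSG00000024371, chr17:34862604-34898265, minus strand) are neighbours in the major histocompatibility complex, and *C2* and *Cfb* are 85 bases apart. *C3* (ENSMUSG00000024164, chr17:57203970-57228136, minus strand) lies farther along the same chromosome. *C1ra* (ENSMUSG00000055172, chr6:124512405-124523443, plus strand) and *C1s1* (ENSMUSG00000038521, chr6:124530345-124542359, minus strand) have 6901 bases between them. *Serping1* (ENSMUSG00000023224, chr2:84765387-84775444, minus strand) and *Cd59a* (ENSMUSG00000032679, chr2:104095801-104115354, plus strand) are on chromosome 2, and *Cd55* (ENSMUSG00000026399, chr1:130439027-130462744, minus strand) is on chromosome 1. All 9 are annotated as protein-coding genes, and values are sums over their exons.

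Several of these genes share sequence with other genes, which limits what their counts can tell. The annotated gene *Gm20547*, which joins *C2* and *Cfb* into 1 transcript, covers 79.5% of the exon bases of *Cfb* and 42.8% of those of *C2*. It was listed at 0 in each library, and how reads that fit more than 1 gene were counted is not given in the sources used here. The levels of *C2* and above all of *Cfb*, which has 20.5% of its exon bases outside other genes, may therefore be too low. Of all stretches of 100 bases in the transcripts of *C1ra*, 34.5% also occur in *C1rb*, which had at most 8 read pairs per library. The share is 15.2% between *C4b* and *C4a*, 6.87% between *C1s1* and *C1s2*, 4.19% between *Cd55* and *Cd55b* and 0.276% between *Cd59a* and *Cd59b*. An antisense gene, *Gm16567*, overlaps 18.4% of the exon bases of *C1s1*, and strand is not given for the counting. *C3* and *Serping1* share no such stretch with another gene.

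Because *C3*, *C1ra* and *C1s1* rose together in both genotypes, as described below, the bases just before their start sites were searched for binding motifs of factors that act downstream of cytokines. RefSeq start sites (GRCm38.p6) were found for 5 of the 9 genes, namely *C3*, *C1ra*, *C1s1*, *Cd55* and *Cd59a*, and 250 bases before each were searched on both strands. The windows of *C3* (chr17:57228137-57228386, minus strand) and *C1s1* (chr6:124542360-124542609, minus strand) are shown 5′ to 3′, ending at the start site, with matches to the C/EBP motif TTGCNNAA in capitals:
C3: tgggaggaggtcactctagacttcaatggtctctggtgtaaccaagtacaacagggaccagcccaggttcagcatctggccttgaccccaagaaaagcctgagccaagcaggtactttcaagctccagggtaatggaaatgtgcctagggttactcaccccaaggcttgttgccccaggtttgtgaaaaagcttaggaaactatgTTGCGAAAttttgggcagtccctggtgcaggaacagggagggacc
C1s1: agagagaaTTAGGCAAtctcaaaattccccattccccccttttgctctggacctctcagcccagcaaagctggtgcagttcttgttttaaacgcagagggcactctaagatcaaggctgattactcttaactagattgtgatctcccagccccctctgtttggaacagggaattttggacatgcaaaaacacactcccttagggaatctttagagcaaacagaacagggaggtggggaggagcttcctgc
The match began 45 bases before the start of *C3* and 242 bases before that of *C1s1*, and 9.56% of 32851 promoter windows of that length held this motif. No window of the 5 genes held the κB consensus, which 3.9% of promoter windows held. The core of the interferon-stimulated response element (GAAA, any 2 bases, GAAA; in 2.98%) was found in the window of *Cd59a* only. The window of *C1ra* held none of these 3 motifs, but 216 of its 250 bases lie in annotated exons. *C1s1* has another RefSeq start, and the window before it, with 38 bases in annotated exons, held none of the 3 either. A match is a string of letters and no evidence of binding, and factors may bind elsewhere.

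Without stimulation, *C4b* was the most abundant of the 9 genes in both genotypes. Its protein is the C4 substrate of C1s. Levels between genes were compared as CPM divided by kilobases of exon, since the deposited FPKM cannot be compared between genes. On this scale *C4b* stood at 1.26 ± 0.369 in WT NS libraries and at 3.08 ± 1.14 in TNFR2-/- NS libraries (mean ± SD, n = 3). *Cd59a* followed at 0.619 ± 0.252 and 0.829 ± 0.273, without overlap with *C4b* or with the gene below it in either group. *C1ra*, *C1s1*, *Serping1* and *C2* had means of 0.114 to 0.248 in WT NS and 0.182 to 0.356 in TNFR2-/- NS libraries, and neighbours in this order overlapped. *Cd55* had a lower mean in both groups, at 0.0958 ± 0.0456 and 0.0772 ± 0.0139. Its libraries overlapped with those of *C2*, the gene above it, in WT NS but not in TNFR2-/- NS. *C3*, the central component, was near the limit of detection at 0.0212 ± 0.0263 and 0.0279 ± 0.0208, and *Cfb* was lowest.

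After stimulation the order changed. In WT St libraries *Serping1* came first on the same scale at 5.14 ± 1.56, followed by *C4b* at 3.92 ± 0.156, *C1s1* at 3.91 ± 0.985 and *C1ra* at 3.56 ± 0.277. Neighbours among these 4 overlapped, and all libraries of *C1ra* were above those of *C3*, which reached 0.99 ± 0.276. In TNFR2-/- St libraries *C1ra* came first at 8.86 ± 3.57, then *Serping1* at 8.45 ± 1.22, *C1s1* at 7.65 ± 1.95 and *C4b* at 6.71 ± 2.59, again with overlap between neighbours. *C3* ranked 5 of 9 in both stimulated groups, at 1.35 ± 0.922 in TNFR2-/- St, and overlapped with *Cd59a*. *Cfb* remained lowest.

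**Figure D1:**
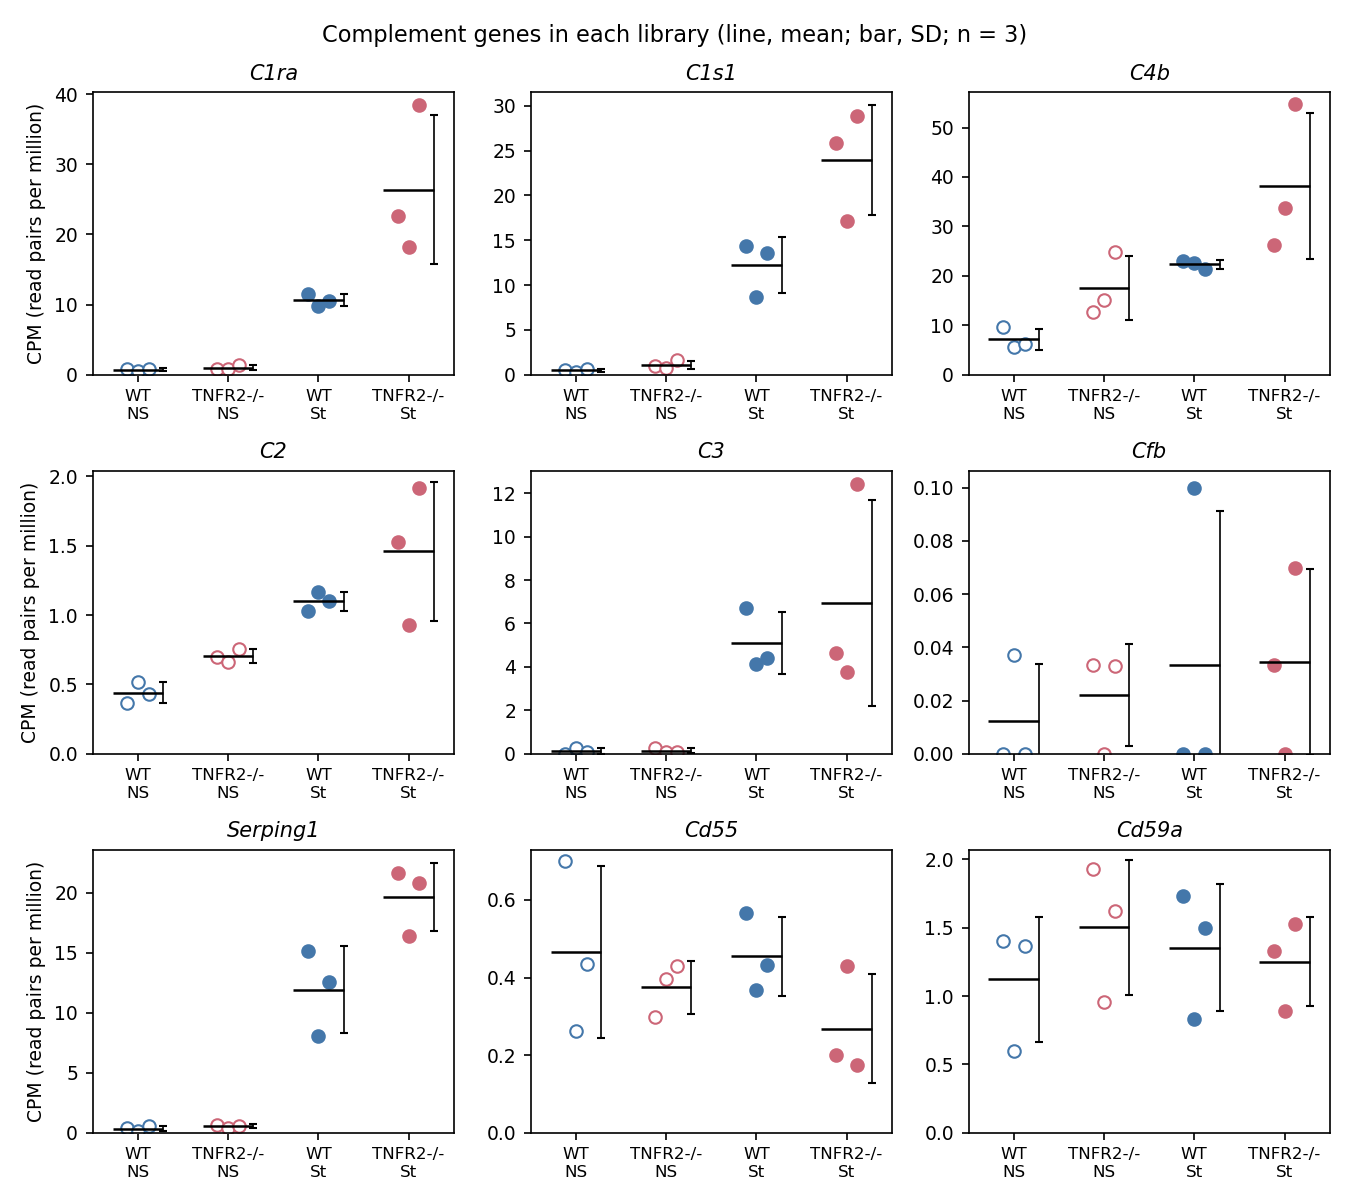
CPM (linear axes from 0) of each of the 9 genes in the 12 libraries, by group. Each circle is 1 library, open for NS and filled for St, horizontal lines are means and bars are SD (n = 3). *C1ra*, *C1s1*, *C4b*, *C2*, *C3* and *Serping1* are higher in all St than in all NS libraries of the same genotype, whereas *Cfb*, *Cd55* and *Cd59a* overlap.

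The first question was which of these genes respond to cytokines in OPCs. In WT cells 6 of the 9 genes rose within 3 h (*C3*, *C1ra*, *C1s1*, *C2*, *C4b* and *Serping1*), and the remaining 3 did not pass the test or were not tested. Their means rose between 2.49-fold for *C2* and 46.7-fold for *C3*. A call required an adjusted p (Benjamini-Hochberg) no higher than 0.05, a fitted change of 1.5-fold or more and a mean no lower than 1 FPKM, and 4.58% of the 18081 genes tested were called higher in this comparison. That mean is taken over all 12 libraries, and *C3*, *C1ra*, *C1s1* and *Serping1* reached it only through stimulated libraries. Their group means were 0.0866 to 0.226 FPKM in WT NS and 0.115 to 0.492 FPKM in TNFR2-/- NS libraries. Of the 9 genes, 7 passed the filter on low values (*Cfb* and *Cd55* did not), and *Cd59a* was below the mean that a call needs. These cuts act on the deposited FPKM, which cannot be compared between genes. In WT NS libraries *Cd59a* had a mean of 1.12 CPM against 0.441 for *C2*, but of 0.242 FPKM against 0.877. Only in TNFR2-/- St libraries was the mean CPM of *C2* higher, at 1.46 against 1.25. The median log2 fold change of the 7 was 1.66, against -0.05 over all genes tested. All 3 WT St libraries were above all 3 WT NS libraries for the same 6 genes, as they were for 13.7% of all genes tested. TNFR2-/- cells gave the same picture, with the same 6 genes called higher against 5.41% of all genes, no overlap between groups for these 6 against 12.7% of all genes, and a median of 2.49 against -0.11. Because the 9 genes were chosen with earlier results of these data known, the values over all genes give a scale and no test.

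Sums of cell type markers also differed between NS and St libraries. The sum of the 8 OPC markers given above was lower in all St than in all NS libraries of each genotype. The sum of the 6 neuronal markers, none of which was at 0, was higher in all St libraries, at 1029 to 1072 CPM against 799 to 884 in WT and 1033 to 1128 against 720 to 734 in TNFR2-/- cells. Of the neuronal markers, 3 had a positive fitted change in WT (median log2 fold change -0.003) and 4 in TNFR2-/- cells (median 0.353). Of the OPC markers, 1 was called higher and 2 lower in WT and 1 lower in TNFR2-/- cells, and of the neuronal markers 1 higher and 1 lower in each genotype. Over all genes tested, 4.58% were called higher and 2.95% lower in WT, and 5.41% and 4.68% in TNFR2-/- cells. The part of these markers in the response of the complement genes was not tested.

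Fold changes are given on 2 scales below. Folds are ratios of mean CPM. Log2 fold changes come from limma on log2(FPKM + 0.5), where the pseudocount of 0.5 shrinks the change of a gene with low FPKM, so that fitted values are smaller than the folds for *C1ra*, *C1s1*, *C3*, *Serping1* and *C2*. For *C1s1* the 2 scales order the genotypes differently, with 23.9-fold in WT against 21.5-fold in TNFR2-/- cells but fitted values of 3.00 against 3.47.

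*C1ra* and *C1s1* encode the proteases C1r and C1s, which start the classical pathway. *C1ra* had 25, 14 and 26 read pairs in WT NS libraries and 345, 295 and 316 in WT St libraries. TNFR2-/- NS libraries had 23, 24 and 42 and TNFR2-/- St libraries 678, 551 and 1102. Stimulated libraries were thus far above non-stimulated ones in both genotypes, with the highest value in TNFR2-/- St 5. The mean rose 14.3-fold in WT and 26.9-fold in TNFR2-/- cells, with log2 fold changes of 1.57 ± 0.19 (SE, adjusted p = 0.000248) and 2.49 ± 0.19 (adjusted p = 5.9e-06). Without TNFR2-/- St 2 or TNFR2-/- St 5, the adjusted p of both comparisons stayed between 1.08e-06 and 0.000544, but the mean FPKM of *C1ra* fell to 0.996 and 0.827, below the mean of 1 that a call needs. The same held in WT when only the 6 libraries compared were fitted (mean 0.664 FPKM, adjusted p = 0.000143). *C1s1* had 17, 9 and 19 read pairs in WT NS and 433, 261 and 408 in WT St libraries. In TNFR2-/- cells it had 29, 23 and 49 read pairs without and 773, 518 and 829 with stimulation. Its mean rose 23.9-fold in WT (log2 fold change 3.00 ± 0.23, adjusted p = 6.66e-06) and 21.5-fold in TNFR2-/- cells (3.47 ± 0.23, adjusted p = 1.81e-06), and this call was made in each alternative analysis.

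*Serping1* encodes C1-INH, the inhibitor of C1r and C1s, and rose along with them. It had 11, 4 and 16 read pairs in WT NS and 457, 241 and 379 in WT St libraries. TNFR2-/- libraries had 20, 11 and 18 read pairs without and 652, 496 and 596 with stimulation. No stimulated library came near a non-stimulated one. The mean rose 34.1-fold in WT (log2 fold change 3.05 ± 0.20, adjusted p = 2.13e-06) and 36.3-fold in TNFR2-/- cells (3.57 ± 0.20, adjusted p = 5.29e-07).

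*C4b* was the one gene of the set with substantial reads before stimulation. WT NS libraries had 287, 153 and 186 read pairs and WT St libraries 691, 680 and 641. TNFR2-/- NS libraries had 379, 459 and 754 and TNFR2-/- St libraries 788, 1017 and 1568. The 3 WT St values lay close together, whereas the TNFR2-/- values spread widely, and culture 5 was highest in both conditions. The mean rose 3.12-fold in WT (log2 fold change 1.66 ± 0.30, adjusted p = 0.00352) and 2.18-fold in TNFR2-/- cells (1.11 ± 0.30, adjusted p = 0.0211). The second call was lost without TNFR2-/- NS 2 (adjusted p = 0.0771), TNFR2-/- NS 4 (0.0626) or TNFR2-/- St 5 (0.0665), and with only the 6 libraries compared (0.0792). *C4a*, the neighbouring copy with which *C4b* shares sequence, had 40 to 66 read pairs in WT NS, 70 to 92 in WT St, 30 to 41 in TNFR2-/- NS and 39 to 64 in TNFR2-/- St libraries. Its mean of 0.771 FPKM was below that which a call by limma on log2(FPKM + 0.5) needs, and voom (limma on recovered reads) did not call it. The mean CPM of *C4a* rose 1.49-fold in WT and 1.54-fold in TNFR2-/- cells, both with overlap. With voom and the culture as a block it was called higher in TNFR2-/- St than in TNFR2-/- NS cells (log2 fold change 0.62 ± 0.22, adjusted p = 0.03).

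*C2* encodes the protease that joins C4 to cleave C3, and its change was the smallest of the 6. It had 11, 14 and 13 read pairs in WT NS, 31, 35 and 33 in WT St, 21, 20 and 23 in TNFR2-/- NS, and 46, 28 and 55 in TNFR2-/- St libraries. Libraries did not overlap within either genotype, although TNFR2-/- St 4 was close to the non-stimulated values. The mean rose 2.49-fold in WT (log2 fold change 0.97 ± 0.19, adjusted p = 0.00549) and 2.07-fold in TNFR2-/- cells (0.79 ± 0.19, adjusted p = 0.0114). Neither was called with FPKM recomputed with exon length, where both log2 fold changes were 0.35 and the mean 0.239 FPKM. The call in TNFR2-/- cells was also lost with only the 6 libraries compared (adjusted p = 0.0687).

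*C3*, on which all pathways converge, was nearly absent from non-stimulated cells. It had 0, 7 and 2 read pairs in WT NS and 8, 3 and 2 in TNFR2-/- NS libraries. After stimulation it had 202, 124 and 133 read pairs in WT and 139, 114 and 355 in TNFR2-/- libraries. TNFR2-/- St 5 thus had more than either other library of its group, and the remaining 5 stimulated libraries lay between 114 and 202. The mean rose 46.7-fold in WT (log2 fold change 3.70 ± 0.40, adjusted p = 9.75e-05) and 48.2-fold in TNFR2-/- cells (3.83 ± 0.40, adjusted p = 5.7e-05). Since so few reads stand behind the non-stimulated values, these folds are imprecise. With exon length neither change was called, since the mean of *C3* was then 0.597 FPKM (adjusted p = 0.00244 and 0.000794). On recovered reads (limma's voom), where no pseudocount on FPKM is used, the 95% interval of the log2 fold change ran from 3.71 to 8.55 in WT and from 3.38 to 7.47 in TNFR2-/- cells.

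**Figure D2:**
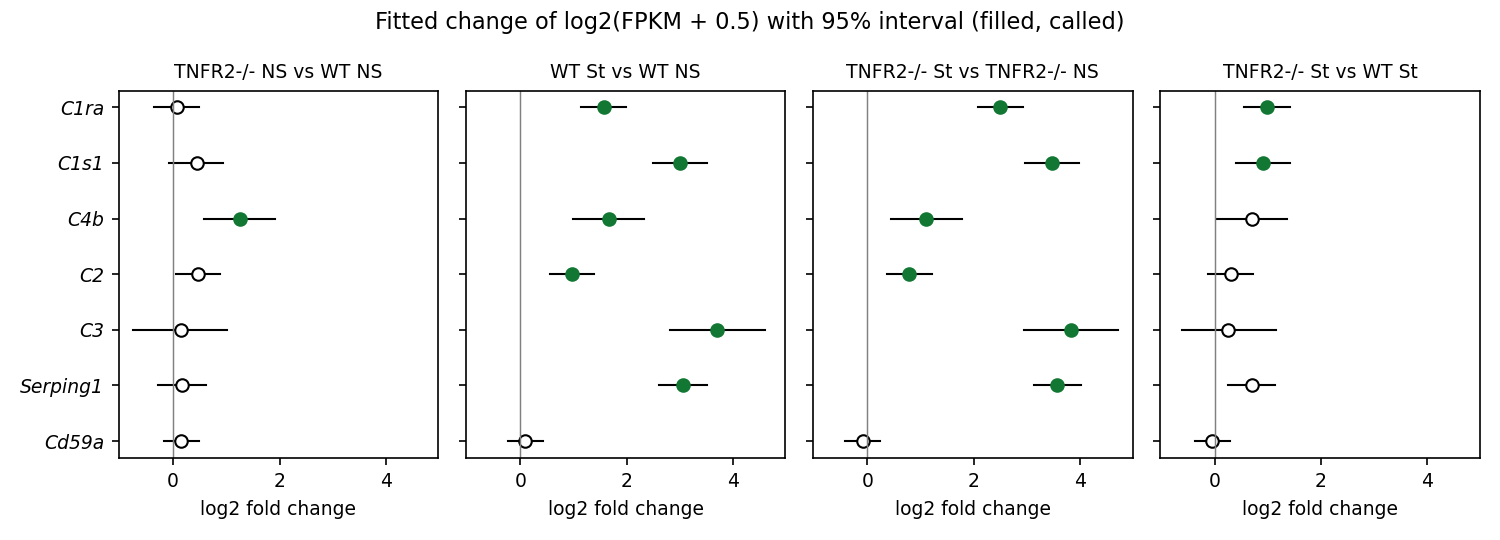
Fitted log2 fold changes of the 7 genes past the filter on low values, from limma on log2(FPKM + 0.5), in 4 comparisons on 1 common axis. Points are estimates over 12 libraries, lines are 95% intervals, and filled points were called. Both stimulation comparisons have 6 filled points to the right of 0, from 0.97 to 3.70 in WT and from 0.79 to 3.83 in TNFR2-/-, whereas *C4b* alone is filled in non-stimulated and *C1ra* and *C1s1* in stimulated cells between genotypes.

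The 3 other genes did not pass the test. *Cd55* and *Cd59a* encode membrane inhibitors anchored on the cell's own surface. *Cd59a* had 42, 16 and 41 read pairs in WT NS, 52, 25 and 45 in WT St, 58, 29 and 49 in TNFR2-/- NS, and 40, 27 and 44 in TNFR2-/- St libraries. All 4 groups overlapped, and its log2 fold change with stimulation had a 95% interval of -0.23 to 0.42 in WT and -0.42 to 0.24 in TNFR2-/- cells. Because the mean of *Cd59a* was below 1 FPKM, the same was tested on recovered reads, where the intervals were wider, at -0.61 to 1.17 and -1.08 to 0.61.

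*Cd55* had 21, 7 and 13 read pairs in WT NS, 17, 11 and 13 in WT St, 9, 12 and 13 in TNFR2-/- NS, and 6, 13 and 5 in TNFR2-/- St libraries. Groups overlapped here too, and on recovered reads its log2 fold change with stimulation was 0.04 (95% interval -0.81 to 0.88) in WT and -0.54 (-1.48 to 0.40) in TNFR2-/- cells. The intervals thus reach up to a rise of 0.88 in WT and of 0.40 in TNFR2-/- cells. *Cfb*, which encodes factor B of the alternative pathway, had 0, 1 and 0 read pairs in WT NS, 0, 3 and 0 in WT St, 1, 0 and 1 in TNFR2-/- NS, and 1, 0 and 2 in TNFR2-/- St libraries. It was at the limit of detection in every group, and no fold is given.

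The next question was whether these genes differ between genotypes before stimulation. *C4b* was called higher in the libraries labelled TNFR2-/- NS, the single call among the 9 genes, where 1.62% of all genes tested were called higher. With 379, 459 and 754 against 287, 153 and 186 read pairs, the groups did not overlap, and the mean was 2.45-fold higher (log2 fold change 1.25 ± 0.30, adjusted p = 0.0307). The call was lost without WT NS 3 (adjusted p = 0.119), WT NS 4 (0.101) or TNFR2-/- NS 5 (0.0968), with no filter on low values (0.0577) and with only the 6 libraries compared (0.0846). *C1s1* and *C2* were also higher in all 3 TNFR2-/- NS libraries, so that 3 of 9 genes showed this pattern against 19.9% of all genes, but they were not called. Their log2 fold changes were 0.44 (95% interval -0.07 to 0.94, adjusted p = 0.233) and 0.47 (0.05 to 0.89, adjusted p = 0.126). The groups overlapped for *C3*, *C1ra*, *Serping1*, *Cd55*, *Cd59a* and *Cfb*. The median log2 fold change of the 7 genes tested was 0.17, against 0.04 over all genes.

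In stimulated cells the 2 proteases of C1 were higher in the libraries labelled TNFR2-/- than in WT, where 1.18% of all genes tested were called higher. *C1ra* had 678, 551 and 1102 against 345, 295 and 316 read pairs, a 2.49-fold higher mean (log2 fold change 0.99 ± 0.19, adjusted p = 0.0253). The difference was called in 18 of 24 alternative analyses. It was lost without WT St 2 (adjusted p = 0.0517), WT St 3 (0.101) or WT St 4 (0.0866) and with only the 6 libraries compared (0.0924) by its p. Without TNFR2-/- St 2 (0.0554) its p and its mean FPKM missed the thresholds, and without TNFR2-/- St 5 (0.0334) its mean FPKM alone did.

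*C1s1* had 773, 518 and 829 against 433, 261 and 408 read pairs, a 1.96-fold higher mean (log2 fold change 0.91 ± 0.23, adjusted p = 0.0488). The groups did not overlap, but the call was at the edge of the threshold and was made in 11 of 24 alternative analyses, with adjusted p from 0.0286 to 0.164. It was lost without WT NS 2 (0.0655), WT NS 3 (0.0631), WT NS 4 (0.0715), WT St 2 (0.0642), WT St 3 (0.164), WT St 4 (0.114), TNFR2-/- NS 2 (0.0655), TNFR2-/- St 2 (0.109) or TNFR2-/- St 5 (0.153), and among other settings with only the 6 libraries compared (0.109).

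*Serping1*, which encodes the inhibitor of both proteases, and *C4b*, which encodes the substrate of C1s, were higher in all TNFR2-/- St libraries as well. Their means were 1.64-fold and 1.71-fold higher, but missed the threshold. *Serping1* had 652, 496 and 596 against 457, 241 and 379 read pairs (log2 fold change 0.70 ± 0.20, adjusted p = 0.0673), and was called on recovered reads (0.75 ± 0.21, adjusted p = 0.0476), where 1.98% of all genes were called higher. *C4b* had 788, 1017 and 1568 against 691, 680 and 641 read pairs (0.70 ± 0.30, adjusted p = 0.169). In all, 4 of 9 genes did not overlap between stimulated groups, all of them higher in TNFR2-/-, as 15.6% of all genes were. For *C3* the log2 fold change was 0.26 (95% interval -0.62 to 1.15, adjusted p = 0.709) and turned to -0.24 without TNFR2-/- St 5. For *C2* it was 0.30 (-0.12 to 0.72, adjusted p = 0.343) and for *Cd59a* -0.04 (-0.37 to 0.29, adjusted p = 0.904).

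Markers of astrocytes moved with the genotype. All 10 markers of the list (*Aqp4*, *Gja1*, *Aldh1l1*, *Slc1a2*, *Slc1a3*, *Gfap*, *Aldoc*, *Fgfr3*, *Sox9* and *Glul*) had higher fitted values in TNFR2-/- libraries in both conditions, and 2 were called in each. Their sum was 2638 to 3093 CPM in WT NS, 3674 to 6155 in TNFR2-/- NS, 2488 to 2614 in WT St and 3730 to 5816 in TNFR2-/- St libraries. Culture TNFR2-/- 5, which had the most read pairs of *C4b* and *C1ra* in both conditions, also had the highest sums, 6155 and 5816. This was not particular to astrocyte markers. Within its genotype, culture 5 also had the highest sums of OPC markers (9350 NS, 8184 St) and mature oligodendrocyte markers (796 and 665). Its sums were the lowest for microglial markers (10.9 and 9.94) and for those of mural cells and fibroblasts (8.94 and 6.52). The part of astrocytes in the differences of *C4b*, *C1ra* and *C1s1* between genotypes was not tested. In bulk RNA, more cells of a type and more RNA per cell cannot be told apart. With stimulation, the median log2 fold change of the 10 markers was -0.06 in both genotypes, and 1 was called lower in each, with sums that did not overlap in WT and did in TNFR2-/- cells. Markers of mural cells and fibroblasts summed to 13.7 to 33 CPM in WT NS and 11.8 to 45.1 in WT St libraries, against 8.94 to 11.8 in TNFR2-/- NS and 6.52 to 8.74 in TNFR2-/- St libraries. Their part was not tested either.

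Whether the response to cytokines differed between genotypes was tested as the interaction of genotype and stimulation. None of the 7 genes tested with limma was called (1 had an unadjusted p under 0.05, and none was called with voom), and across all genes 0.00553% were called. *C1ra* had the largest value, 0.93 ± 0.27 on the log2 scale (adjusted p = 0.502). The response of *C1ra* within a culture was 13.8-, 18.9- and 12.1-fold in WT and 29.6-, 23- and 27.7-fold in TNFR2-/- cells, so every TNFR2-/- culture exceeded every WT culture, as for 9.97% of the 15043 genes tested with over 3 read pairs in each library. *C4b* went the other way, with 2.4-, 3.98- and 3.43-fold in WT and 2.09-, 2.22- and 2.2-fold in TNFR2-/- cells (interaction -0.55 ± 0.43, adjusted p = 0.812), and TNFR2-/- cultures were all below WT cultures for 20.9% of those genes. Of the 9 genes, 6 both passed the filter on low values and had over 3 read pairs in each library, and *Cd59a* was the other one with all TNFR2-/- cultures below. The non-stimulated and stimulated library of 1 number deviated together, so a fit with the culture as a block was also made. On recovered reads with the culture as a block, the interaction was 0.92 ± 0.26 for *C1ra* (adjusted p = 0.052) and -0.52 ± 0.14 for *C4b* (adjusted p = 0.0446), the latter below the fold that a call needs. On log2(FPKM + 0.5) with the same block the adjusted p was 0.105 and 0.158. There 4 of the 7 genes had an unadjusted p under 0.05, as did 7 of 23 other complement genes described below, and none was called. For *C1s1* the folds of cultures interleaved, at 25.4, 26 and 21.4 in WT and 26.7, 22.5 and 17.9 in TNFR2-/- cells, and for *Serping1* they were 41.5, 54 and 23.6 against 32.7, 45.1 and 35.

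**Figure D3:**
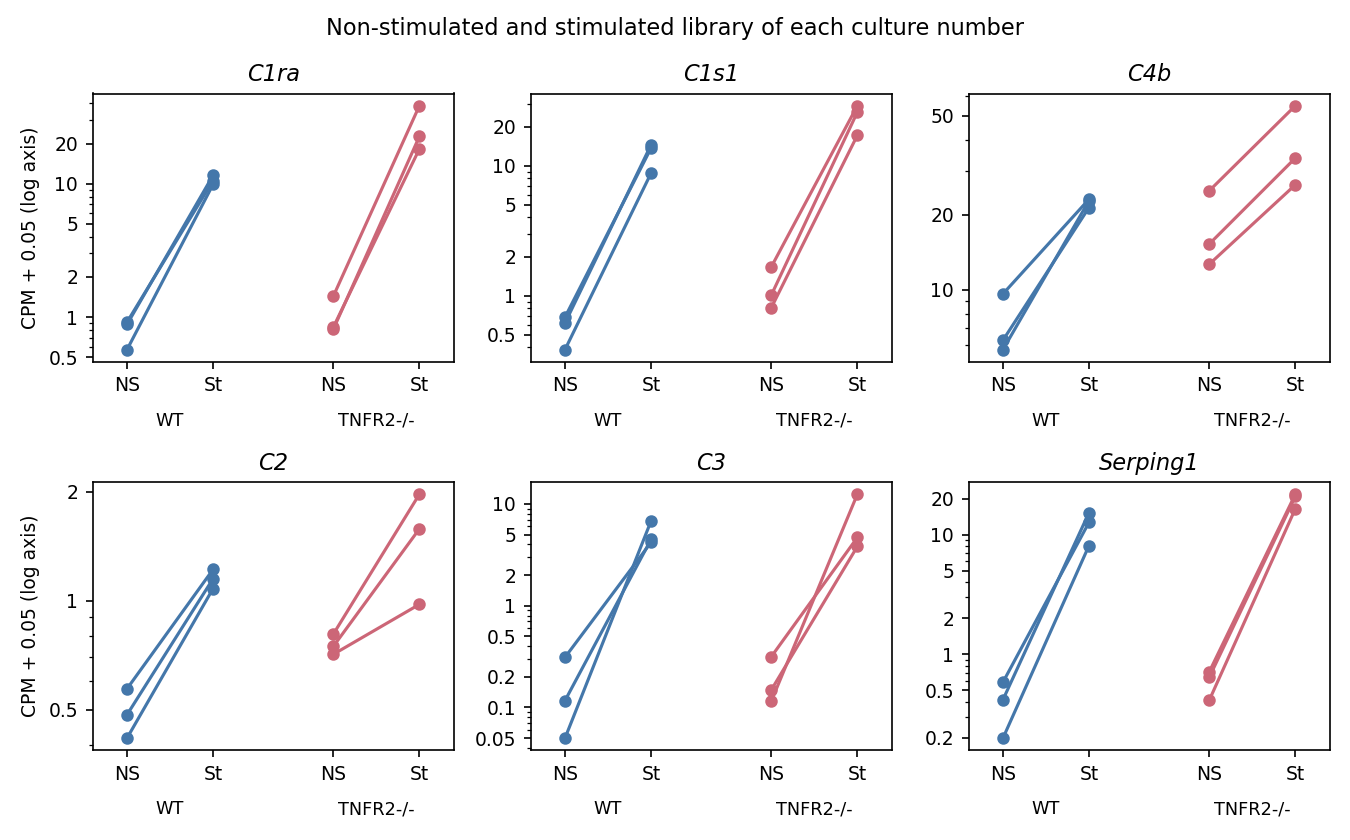
CPM plus 0.05 (log axes) in the non-stimulated and stimulated library of each culture, joined by a line, for the 6 genes that rose. Each genotype has 3 cultures. Every line rises, and for *C4b* the TNFR2-/- lines start above all WT lines and rise by 2.09- to 2.22-fold, against 2.4- to 3.98-fold in WT.

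The genes whose pattern over the 12 libraries was most like each of the 9 were found by Pearson's r of log2(FPKM + 0.5) among 13554 genes. For *C3* these were *Ubd* (r = 0.992), *C230035I16Rik* and *Pnpt1* (both 0.991). For *C1ra* they were *Phf11d* (0.999), *Ciita* (0.995) and *Gm12188* (0.993), and for *C1s1* *Oasl2* (0.996), *Trim12a* (0.995) and *Nod1* (0.994). *Ciita* encodes the activator of MHC class II genes, and *Oasl2* is an interferon-induced gene. *Serping1* was most like *Olfr1396* (0.997), *Cdk6* (0.996) and *Tgm2* (0.995). *C2* was most like *Rtcb* (0.969), *Slc22a5* (0.966) and *Bpnt1* (0.962). *C4b* had *Slc20a2*, *Vsig10l* (both 0.974) and *Rnf135* (0.970) as its nearest genes. *Cd55* had lower values, with *Lamb1* (0.879), *Col6a2* (0.870) and *Crabp1* (0.868), of which *Lamb1* and *Col6a2* encode extracellular matrix proteins. *Cd59a* was most like *Plin3* (0.904), *Lix1* (0.900) and *Tctn2* (0.893). *Cfb*, with hardly any reads, had *Chgb* (0.866), *Trnt1* and *Eif3j1* (both 0.823). These values describe libraries that fall into stimulated and non-stimulated sets, so any gene that follows stimulation gives a high r with the 6 that rose.

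The rest of the complement system was read from a list of 51 other genes. All were in the tables, 4 were at 0 in each library, 20 had at most 3 read pairs in any library, 23 passed the filter and 13 had means of 1 FPKM or more. The 3 chains of C1q, the protein that holds C1r and C1s at their target, had at most 2 read pairs per library. Among the receptors for complement fragments, *C3ar1* had at most 4 and *C5ar1* at most 1, and *Itgam*, a subunit of the receptor for cleaved C3, at most 4. Factor D (*Cfd*), which activates factor B, had at most 2. Limma on log2(FPKM + 0.5) could call only these 13, and called none of them with stimulation in either genotype. Of the 23 genes, 3 in WT and 5 in TNFR2-/- cells had an unadjusted p under 0.05. Voom, which tested 22 genes of the list whatever their FPKM, called 0 and 2 (*C1rl* and *Cr2*, both higher). It called 6.43% and 7.57% of all genes higher. The mean CPM of *C1rl* rose 2.75-fold in WT, without overlap, and 2.14-fold in TNFR2-/- cells, with overlap. With the culture as a block, limma called 1 gene, *Cd93*, in WT cells, and it was lower with stimulation. Its stimulated level within a culture was 0.509-, 0.358- and 0.333-fold the non-stimulated one in WT and 0.64-, 0.569- and 0.642-fold in TNFR2-/- cells. The median log2 fold change of the 23 was 0.02 in both genotypes.

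Between genotypes, *Masp2* had the largest fitted change of the 2 other complement genes called by limma on log2(FPKM + 0.5). Its protein is the protease of the lectin pathway that cleaves C4 and C2, as C1s does. It had 22, 22 and 37 read pairs in WT NS, 19, 39 and 28 in WT St, 111, 145 and 121 in TNFR2-/- NS, and 138, 177 and 159 in TNFR2-/- St libraries. Libraries labelled TNFR2-/- were thus all above those labelled WT, with log2 fold changes of 1.58 ± 0.17 in non-stimulated (adjusted p = 0.00359) and 1.88 ± 0.17 in stimulated cells (adjusted p = 0.00139). *Masp2* is on chromosome 4 (chr4:148602554-148615499), 3355683 bases from the targeted gene *Tnfrsf1b* (chr4:145213463-145246870), and 1490 of its 3307 exon bases lie outside other annotated genes. Both calls were lost with FPKM recomputed with exon length, where its mean was 0.86 FPKM (adjusted p = 0.00293 and 0.000789), and the first with only the 6 libraries compared (0.0695). *Csmd3*, a large membrane protein with complement control domains, was the other call, where 1.28% of all genes tested were called lower. It was lower in TNFR2-/- NS libraries with 725 to 953 against 1152 to 1377 read pairs (log2 fold change -0.65 ± 0.17, adjusted p = 0.0369). That call was lost without WT NS 3 (adjusted p = 0.139), WT NS 4 (0.104), WT St 4 (0.0569), TNFR2-/- NS 2 (0.105) or TNFR2-/- NS 5 (0.0719), with no filter (0.0665), with only the 6 libraries compared (0.0802) and with exon length (log2 fold change -0.53). Limma on log2(FPKM + 0.5) called no other gene of the list between genotypes. Voom also called *Cfi*, which had not passed the filter on FPKM, higher in both conditions, where it called 2.56% of all genes higher in non-stimulated and 1.98% in stimulated cells.

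**Figure D4:**
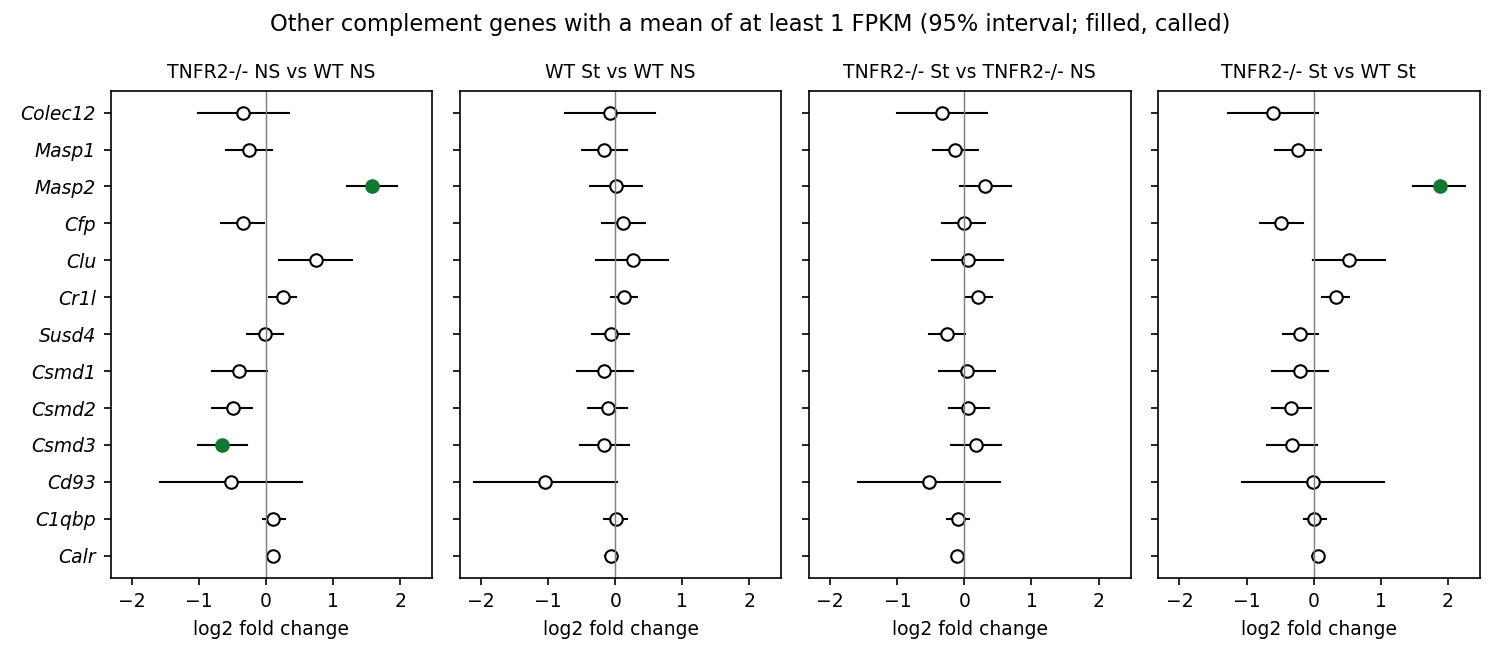
Fitted log2 fold changes of the 13 other complement genes whose mean reached 1 FPKM, from limma on log2(FPKM + 0.5), in 4 comparisons on 1 common axis. Points are estimates over 12 libraries, lines are 95% intervals and filled points were called. *Masp2* is filled in both comparisons between genotypes and *Csmd3* in non-stimulated cells, and no point is filled in the stimulation comparisons.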

How the data were processed

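Total RNA of OPCs was sequenced in 12 libraries, 1 NS and 1 St for each of 6 cultures, as the numbers in the labels were read here. Reads were, per the labels, processed with Trim Galore, STAR and edgeR on GRCm38. The authors deposited FPKM per gene symbol in 2 tables, NS and St, of 45792 entries each. The 229 entries that share 99 symbols were left out. In these FPKM, counts are scaled to the library total and to a divisor per gene that does not follow exon length, so levels between genes were recomputed with the union of GENCODE M21 exons. Read pairs were recovered as whole numbers (within 0.02 reads) for 26636 of 26636 genes above 0 in at least 2 libraries.

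The main test was limma 3.58.1 (R 4.3.3) on log2(FPKM + 0.5), with 1 mean per group and a trended prior, for 18081 genes averaging 0.1 FPKM or more. Adjusted p is Benjamini-Hochberg over all genes tested. With 3 libraries per group, calls rest on the spread pooled over the 4 groups. The model was tested on simulated data. Tables and figures were made in Python 3.11.15 with pandas 2.3.3 and matplotlib 3.10.9.

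Alternatives were other pseudocounts, filters, scalings, priors and thresholds, only the libraries compared, each library left out, a replicate block, voom on recovered reads and, added after seeing the data, FPKM recomputed with exon length and voom on 16932 genes with a mean of 5 reads, with and without the block. Culture numbers were checked over 13554 genes: within a genotype NS and St libraries of 1 number had correlated deviations from their group means, at 0.338 to 0.649 (6 pairs), and those of other numbers at -0.455 to 0.088 (12 pairs). Across genotypes the same number gave -0.055 to 0.204 (4 pairs), so numbers were taken to pair NS and St libraries of 1 culture within a genotype only. Named genes were the 9, those of the other lists that were called, close copies and neighbours, and the 3 most alike. The genes and lists were chosen with earlier results of these data known. *Cd55b* is listed in the tables as *Daf2*.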

Additional observations from a re-analysis of the deposited data

How the results depend on the processing

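Across the alternatives, the 6 genes that rose kept a positive log2 fold change with stimulation in both genotypes, and between 5 and 6 were called in WT and between 4 and 6 in TNFR2-/- cells when 1 library was left out. Of the single values, 825 kept their direction and their side of the threshold, 38 lost a call, 2 gained one and 19 turned sign, none of them called. With FPKM recomputed with exon length, *C3* (1.5 and 1.70) and *C2* (0.35 and 0.35) were no longer called with stimulation, since their mean was below 1 FPKM or their fold too small. *C1ra* in WT and *C4b* (adjusted p = 0.0792) and *C2* (0.0687) in TNFR2-/- cells were not called when only the 6 libraries compared were fitted.

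The single call in non-stimulated cells between genotypes became 0 with no filter or only the 6 libraries compared, and ranged from 0 to 1 without 1 library. The 2 calls in stimulated cells became 1 with a pseudocount of 0.1, with no filter or without the trend, 0 with only the 6 libraries, and 0 to 2 without 1 library. The 2 other complement genes called in non-stimulated cells became 1 with no filter, 0 with only the 6 libraries or with exon length, and 1 to 3 without 1 library. The 1 called in stimulated cells became 0 with exon length, 2 with voom on genes with a mean of 5 reads, and 2 with a replicate block across genotypes. With stimulation, 0 other complement genes became 1 in WT cells with a replicate block within genotype and 2 with that block on voom, and in TNFR2-/- cells 2 with voom and 5 with voom and the block. The replicate block changed no other call of a gene or list named here. The causes were not tested.

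Values that turned sign when 1 library was left out were those of *C3* between non-stimulated genotypes (-0.06 to 0.38, negative without WT NS 2 or TNFR2-/- NS 2, at -0.06 and -0.05), of *C3* between stimulated genotypes (-0.24 to 0.58, negative without TNFR2-/- St 5), of the interaction of *C3* (-0.37 to 0.45, negative without WT NS 3 at -0.12 or TNFR2-/- St 5) and of *C2* (-0.37 to 0.07, positive without TNFR2-/- St 4), and of *Cd59a* with stimulation in WT (-0.02 to 0.20, negative without WT NS 3) and between stimulated genotypes (-0.14 to 0.04, positive without WT St 2 or TNFR2-/- St 4). The interaction of *C3* also turned with a pseudocount of 0.1 (-0.19), with both forms of voom (-0.71) and with voom and the block (-0.34), and that of *C1s1* with both forms of voom (-0.09) and with voom and the block (-0.12). Under a replicate block across genotypes, *C1ra* (-0.13), *Serping1* (-0.03) and *Cd59a* (-0.00018) turned in non-stimulated cells. With voom on genes with a mean of 5 reads, calls over all genes moved from 524 to 811 in non-stimulated and from 325 to 559 in stimulated cells between genotypes, and 1 interaction became 181 with voom and the block. The depth limits *Cfb*, *Cd55* and non-stimulated *C3*.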

Other observations

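Genes beside *C4b*, *C2* and *Cfb* on chromosome 17 were read from a list of 15, of which 12 passed the filter on low values. *Stk19*, which lies 80110 bases from *C4b* (chr17:34823993-34836945), was the one called by limma on log2(FPKM + 0.5), where 4.58% of all genes were called higher with stimulation in WT and 5.41% in TNFR2-/- cells. It had 399, 392 and 459 read pairs in WT NS, 826, 989 and 992 in WT St, 511, 454 and 555 in TNFR2-/- NS, and 735, 781 and 799 in TNFR2-/- St libraries. It rose with stimulation in both genotypes, by 1.06 ± 0.10 (adjusted p = 4.58e-05) and 0.61 ± 0.10 (adjusted p = 0.00165) on the log2 scale. The second call was lost by its fold with a pseudocount of 1 (0.58), without TNFR2-/- NS 4 (0.54) and without TNFR2-/- St 5 (0.56). Voom called *Stk19* in both genotypes and *Zbtb12* lower in TNFR2-/- cells. The median log2 fold change of the 12 was -0.04 in WT and -0.18 in TNFR2-/- cells.

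*Cfi* encodes factor I, a protease that cleaves C3b and C4b and so limits complement. It did not pass the filter on FPKM, and its values were seen before it was chosen. It had 3, 2 and 2 read pairs in WT NS, 2, 9 and 7 in WT St, 26, 13 and 29 in TNFR2-/- NS, and 24, 22 and 24 in TNFR2-/- St libraries, higher in each library labelled TNFR2-/- than in any labelled WT. On recovered reads voom gave log2 fold changes of 2.91 ± 0.53 in non-stimulated (adjusted p = 0.0109) and 2.10 ± 0.46 in stimulated cells (adjusted p = 0.0246). *Clu*, which encodes the complement inhibitor clusterin and is abundant in astrocytes, had 2367 to 4536 read pairs in WT NS and 5203 to 7661 in TNFR2-/- NS libraries, a log2 fold change of 0.74 ± 0.24 that missed the threshold (adjusted p = 0.0729).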
